A study of Homo sapiens with 54 samples.

Results

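The mRNA levels of 10 genes for microtubule subunits and a regulator of microtubule assembly were followed in MDA-MB-231 cells, a human breast cancer line, across 18 groups of libraries. The genes were the 3 α-tubulins TUBA1A, TUBA1B and TUBA1C, the 6 β-tubulins TUBB, TUBB2A, TUBB2B, TUBB3, TUBB4B and TUBB6, and STMN1, which encodes stathmin. They were taken by gene symbol from a table of read counts, in which all 10 were found among 27978 genes. All 10 passed the filter on low counts in every comparison, and the lowest count of any of them in any library was 464, for TUBB3.

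The study asked which components of Compound Kushen Injection (CKI), a herbal extract used in cancer care in China, act on cancer cells, and it did so by taking compounds out of CKI and adding others back. Cells were left untreated (UT), given CKI at 2 mg/ml, or given a mixture at the equivalent of 2 mg/ml. In batch 1, at both 24 h and 48 h, the mixtures were N_2 (CKI depleted of oxymatrine, Omt, and oxysophocarpine, Ospc), N_3 (CKI depleted of these and of macrozamin, Mac), OO (Omt with Ospc alone) and MOO (Mac, Omt and Ospc alone). In batch 2, at 48 h only, they were N_Mac, N_Nme, N_Omt and N_Tri, which were CKI depleted of macrozamin, N-methylcytisine, oxymatrine and trifolirhizin, respectively. Each group held 3 libraries, 54 in all, which the series describes as biological replicates, and whether UT cells received a vehicle is not given in the sources used here. The 5 treatments of one time and batch share their 3 UT libraries, so their comparisons are not independent of each other.

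Microtubules are polymers of α- and β-tubulin dimers that build the mitotic spindle and guide transport and cell movement. Human cells carry several genes for each subunit, whose proteins are nearly alike, and stathmin binds free dimers and promotes disassembly. Cells also hold tubulin mRNA in check: when free dimers are in excess, the factor TTC5 recognises the first residues of a tubulin chain as it leaves the ribosome, and the mRNA being read is degraded.

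The first 30 coding bases of each gene are shown because the opening 4 codons, in capitals, encode the stretch by which a new tubulin chain is recognised in that process, a stretch that stathmin lacks. They are read 5′ to 3′ from the spliced coding sequence of the principal transcript of the GENCODE v29 annotation of the GRCh38 genome, whose gene coordinates are given. The 3 α-tubulin genes lie on chromosome 12 and share all 30 bases, whereas the β-tubulin genes are scattered over chromosomes 6, 9, 16 and 18.
TUBA1A (chr12:49184796-49189324, minus strand): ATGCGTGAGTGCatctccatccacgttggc
TUBA1B (chr12:49127782-49131397, minus strand): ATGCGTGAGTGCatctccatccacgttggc
TUBA1C (chr12:49188736-49274603, plus strand): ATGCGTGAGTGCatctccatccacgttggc
TUBB (chr6:30720201-30725426, plus strand): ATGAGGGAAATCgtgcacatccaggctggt
TUBB2A (chr6:3153669-3157526, minus strand): ATGCGCGAGATCgtgcacatccaggcgggc
TUBB2B (chr6:3224261-3231730, minus strand): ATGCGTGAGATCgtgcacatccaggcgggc
TUBB3 (chr16:89921392-89938761, plus strand): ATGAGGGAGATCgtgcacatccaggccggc
TUBB4B (chr9:137241213-137243707, plus strand): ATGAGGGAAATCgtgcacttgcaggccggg
TUBB6 (chr18:12307669-12344320, plus strand): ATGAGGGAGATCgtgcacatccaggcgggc
STMN1 (chr1:25884181-25906991, minus strand): ATGGCTTCTTCTgatatccaggtgaaagaa

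Over their whole coding sequences, TUBB2A and TUBB2B were 98.13% identical, and the 3 α-tubulin genes were 95.87% to 97.20% identical in pairs. Other pairs of β-tubulin genes were 80.95% to 87.73% identical. How reads that fit more than 1 gene were counted is not given in the sources used here, so the values of TUBB2A and TUBB2B, and to a lesser degree of the α-tubulins, could share reads. In the GENCODE v29 annotation TUBA1A and TUBA1C also overlap at their ends on opposite strands. Whether they overlap in the gene models that were counted, and whether the counting used the strand, is not given.

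Library totals ran from 17673537 to 26138924 counts, with a median of 22568666.5. The cell line markers VIM, CD44, AXL, KRT18, EGFR and CAV1 were present in every library at 66.8 CPM (counts scaled to the depth of each library) or more, and ESR1 and PGR never exceeded 8 and 2 counts. ERBB2 and EPCAM, also listed as low, were at 32.2 to 113 and 6.19 to 27.6 CPM. Of 4 neural markers, RBFOX3 and NEFL did not exceed 0.57 and 0.10 CPM, while SYP reached 5.89 and GFAP 12.1 CPM. Of the 11 proliferation markers, among them MKI67, PLK1 and CCNB1, the summed level was 2238 to 2298 CPM in UT cells at 24 h, 1917 to 1997 in batch 1 at 48 h and 1788 to 2087 CPM in batch 2, and it was below the untreated range of the same time and batch in every treated library. In bulk RNA, fewer dividing cells and less of an mRNA per cell cannot be told apart. At 24 h, CKI replicate 1, N_3 replicate 2 and OO replicate 2 stood apart from the other libraries of their groups, with levels shifted along the difference between the untreated cells of batch 2 and batch 1 (slopes of 0.740, 0.690 and 0.660 over 320 genes, where the other 51 libraries lay between -0.504 and 0.205). Their titles name batch 1 but, unlike all other titles of the series, carry no number after the treatment name. Whether these libraries differ in origin was not tested. The main fits at 24 h keep them, so effects and spread there may hold this shift. Counts at 24 h are therefore also given without these 3 libraries.

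In untreated cells, TUBB and TUBA1B carried most of the tubulin mRNA. Per kilobase of transcript, which allows levels to be compared between genes, TUBB stood at 1458 ± 14.9 CPM per kb (SD, n = 3) at 24 h and TUBA1B at 1136 ± 50.9. TUBB4B followed at 637 ± 34.9 and STMN1 at 498 ± 22.9. Below them in the order came TUBA1C at 324 ± 18.8, TUBB6 at 248 ± 12.4, TUBB2A at 138 ± 8.97, TUBA1A at 124 ± 4.18, TUBB3, known as the neuronal isotype, at 88.3 ± 2.23 and TUBB2B at 45.4 ± 3.64. TUBB2A and TUBA1A were the closest neighbours, and their order turned at 48 h, where TUBA1A stood at 139 ± 9.88 and TUBB2A at 119 ± 9.15 CPM per kb in batch 1, and at 119 ± 5.00 and 62.7 ± 1.25 in batch 2.

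Untreated cells of the batches differed in the β-tubulins other than TUBB. At 48 h, 6 of 10 genes were lower in batch 2 than in batch 1, where 25.1% of all 15872 genes tested were lower, and none was higher. TUBB2A was at 174, 190.4 and 204 CPM in batch 1 and 98.2, 102 and 99.6 in batch 2. Its log2 difference was -0.93 ± 0.07 (SE of the fit, as for every ± after a log2 value), beside -1.04 ± 0.08 for TUBB2B, -0.76 ± 0.08 for TUBB3, -0.72 ± 0.07 for TUBB6 and -0.54 ± 0.07 for TUBB4B. TUBB, TUBA1B and STMN1 showed no such shift, with 95% intervals of -0.15 to 0.14 for TUBB, -0.22 to 0.05 for TUBA1B and -0.08 to 0.19 for STMN1. The shift was not confined to genes of low level, since TUBB4B stood above STMN1 per kilobase at 24 h. TUBA1A, at -0.23, lost its call without UT replicate 2 (-0.24) or 3 (-0.18) of batch 1 or UT replicate 3 of batch 2 (-0.23). Between 24 h and 48 h in batch 1 no gene of the 10 was called in untreated cells by edgeR (4 had an unadjusted p under 0.05) or by DESeq2, beside 1.57% of all genes.

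**Figure D1:**
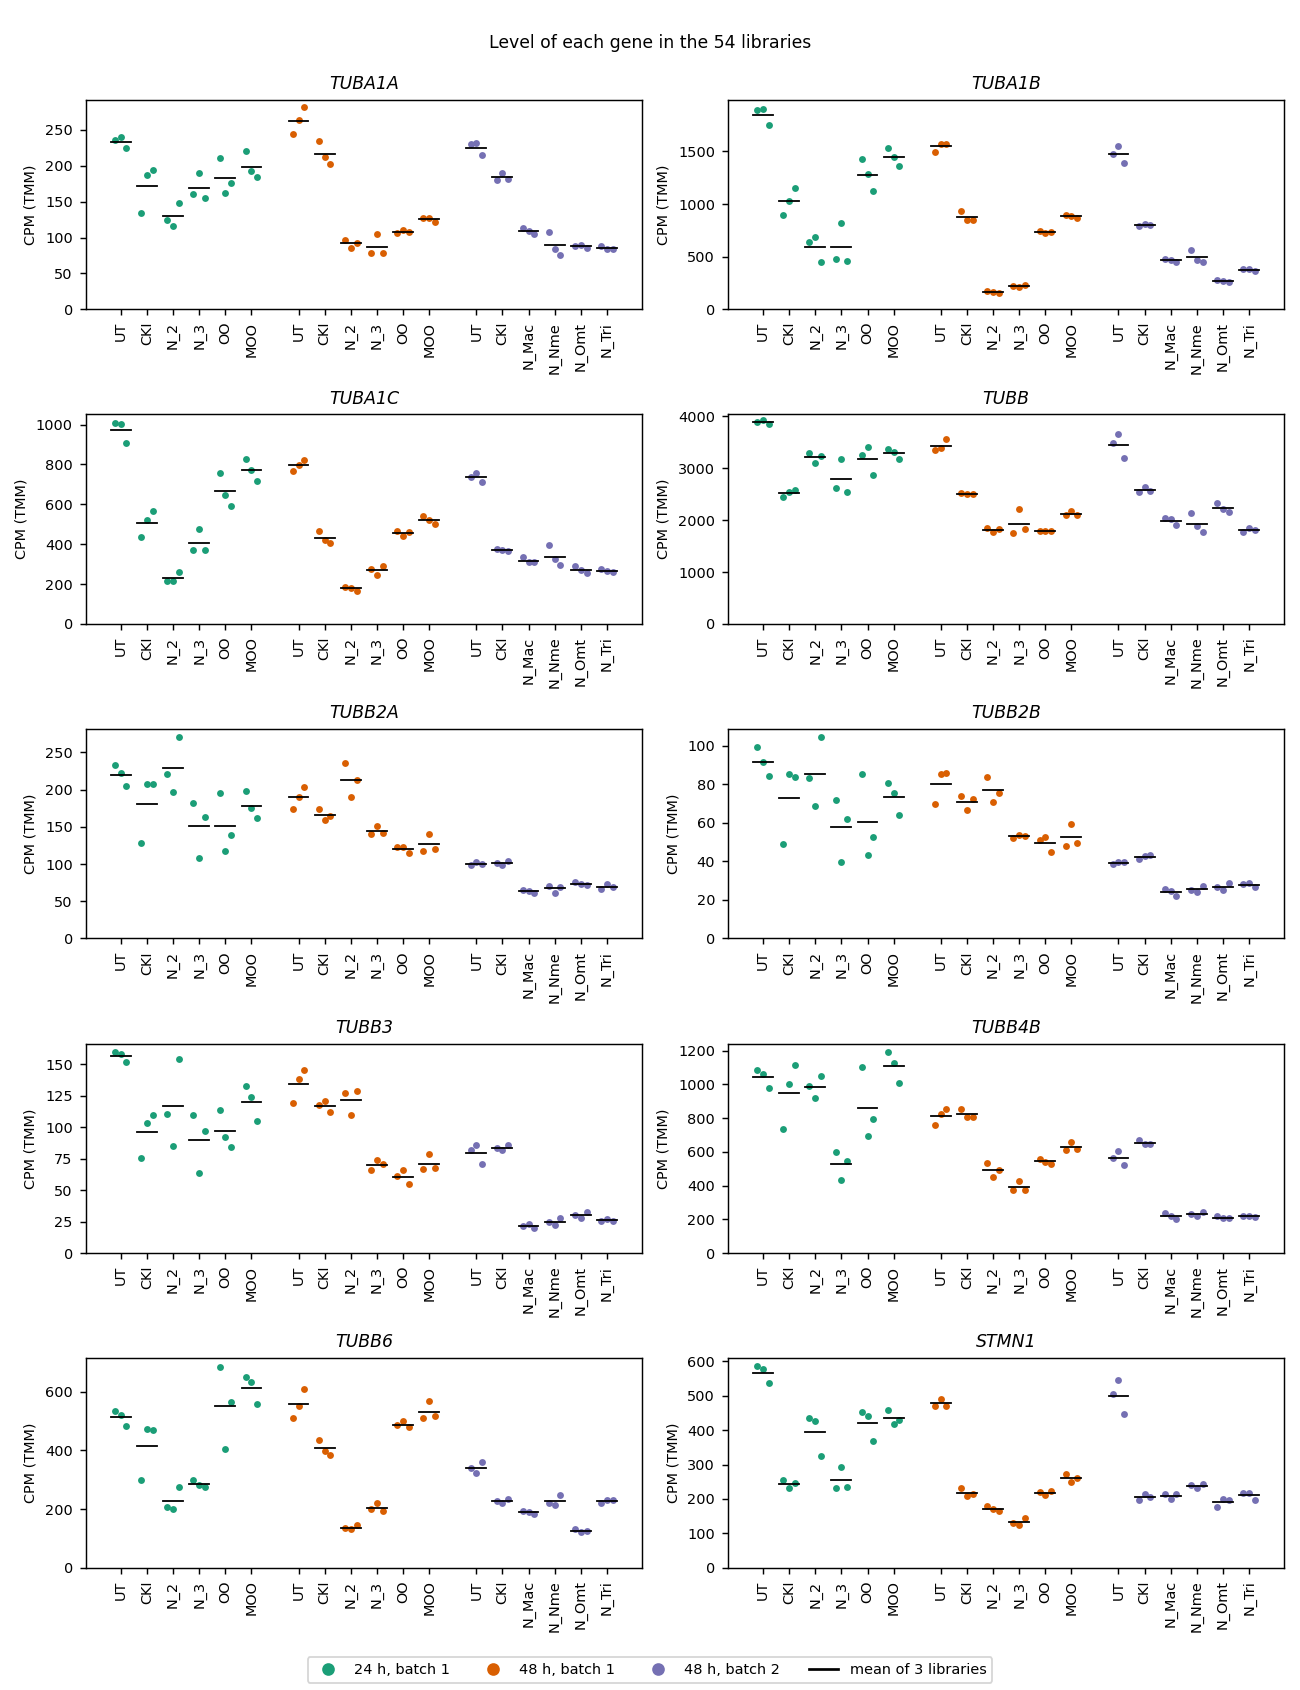
Level of each of the 10 genes in all 54 libraries, in CPM after TMM scaling, by treatment on the x axis and by time and batch in colour; points are libraries and bars are means of 3. STMN1 sat between 123 and 293 CPM in every library of CKI, N_3 and the batch 2 mixtures, below its untreated range of 448 to 586 CPM, whereas TUBB3 and TUBB4B fell under the batch 2 mixtures and not under CKI in batch 2.

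Across the 15 comparisons with untreated cells, the 10 genes gave 150 tests, of which 112 were called at an adjusted p under 0.05. All but 1 of these were lower after treatment. TUBA1C and STMN1 were called lower in 14 of 15 comparisons, TUBA1A and TUBA1B in 13, TUBB in 12, TUBB6 in 11 and TUBB3 in 10. TUBB4B was lower in 9 and higher in 1, TUBB2B was lower in 8 and TUBB2A in 7.

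Counted by comparison in the edgeR fits of 6 groups, the 10 genes were lower more often than all genes tested, except under MOO at 24 h. Under CKI 6 were lower at 24 h, where 14.8% of 15191 genes were lower, 6 at 48 h in batch 1, where 27.0% of 15513 were, and 6 in batch 2, where 34.2% of 15115 were lower and 32.3% higher. At 24 h, 5 were lower under N_2 (30.9% of all genes), 9 under N_3 (21.8%), 3 under OO (7.72%) and none under MOO (4.84%), where 3 had an unadjusted p under 0.05, DESeq2 called 2 and the fit of all 54 libraries 4. With only the MOO and UT libraries in the fit, 9 of 10 were called at 24 h, 8 lower and TUBB6 higher (0.26). Without the 3 libraries that stood apart these counts were 5 under CKI, 7 under N_2, 8 under N_3, 5 under OO and 2 under MOO. The shares of all genes belong to the edgeR fits of 6 groups. None is set beside the counts of the other fits, which therefore cannot be read as particular to the 10 genes. At 48 h, 7 were lower under N_2 (38.3%), 10 under N_3 (35.3%), 10 under OO (28.7%) and 9 under MOO (25.5%). In batch 2 all 10 were lower under N_Mac (35.4%), N_Nme (35.4%), N_Omt (39.9%) and N_Tri (37.4%). The median log2 fold change of the 10 genes ran from -0.31 under MOO at 24 h to -1.40 under N_Omt, whereas the median of all genes tested lay between -0.01 and 0.03. With scaling by library size alone, the median of all genes under N_2 at 24 h moved to -0.31, and 3 uncalled values against untreated cells changed sign: TUBB2A under N_2 at 24 h (from 0.08 to -0.21), TUBB2B under N_2 at 48 h (from -0.06 to 0.0093) and TUBB6 under MOO at 48 h (from -0.08 to 0.0064).

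Several of the calls at 24 h did not hold when 1 library was left out, for some genes whichever of several libraries it was. Under N_3 that of TUBA1A (-0.46) was lost without N_3 replicate 1 (-0.43) or 3 (-0.40). TUBB2B under N_3 (-0.66) was not called without UT replicate 1 (-0.61), 2 (-0.66) or 3 (-0.72) or N_3 replicate 2 (-0.45) or 3 (-0.71). Under OO, TUBB3 (-0.69) was not called without UT replicate 1 (-0.68), 2 (-0.68) or 3 (-0.71) or OO replicate 2 (-0.66) or 3 (-0.60), and TUBA1C (-0.55) without OO replicate 3 (-0.47). The calls of TUBA1B and TUBA1C under N_2 and N_3 at 24 h were kept without any 1 library.

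**Figure D2:**
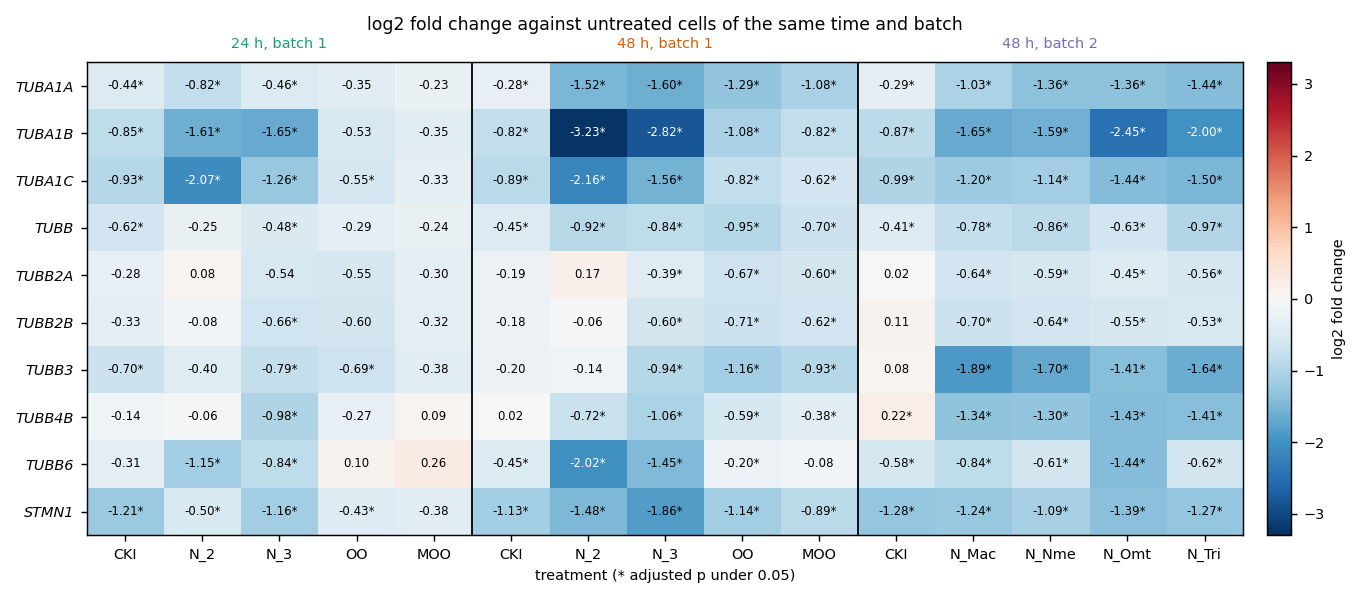
Log2 fold change of each gene (y axis) in each treatment (x axis) against untreated cells of the same time and batch, with an asterisk where the edgeR adjusted p was under 0.05. Blue is lower and red is higher; TUBA1B under N_2 at 48 h has the lowest value, -3.23, and the 1 called rise is TUBB4B under CKI in batch 2, 0.22.

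STMN1 lay below the untreated level in every group, and under CKI its log2 fold change was the lowest of the 10 genes at each time and in each batch. Untreated cells held 586, 577 and 537 CPM of STMN1 at 24 h, and CKI-treated cells 255, 232 and 245. At 48 h the values were 471, 492 and 471 CPM without and 232, 209 and 214 with CKI in batch 1, and 504, 546 and 448 without and 197, 214 and 205 with CKI in batch 2. At no time and in neither batch did a CKI library reach the lowest untreated one. Of all genes tested, 26.3% at 24 h, 31.9% at 48 h in batch 1 and 35.9% in batch 2 also had every CKI library below every untreated one. CKI changed STMN1 by -1.21 ± 0.13 on the log2 scale at 24 h (edgeR adjusted p = 5.82e-06), -1.13 ± 0.07 at 48 h in batch 1 (adjusted p = 8.8e-12) and -1.28 ± 0.06 in batch 2 (adjusted p = 7.61e-18), which left 0.432, 0.458 and 0.412 of the untreated level.

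The mixtures lowered STMN1 as well, by amounts that differed between the times. At 24 h, N_3 libraries held 233, 293 and 234 CPM and changed by -1.16 on the log2 scale, whereas N_2 libraries held 434, 428 and 324 and changed by -0.50. OO, at 368–452 CPM, was called at -0.43 (adjusted p = 0.0281), a call lost without UT replicate 1 (-0.41) or 2 (-0.42) or OO replicate 3 (-0.34). MOO, at 418–458 CPM, was at -0.38 and was not called in the edgeR fit of 6 groups (adjusted p = 0.0673), but it was called by DESeq2 (-0.39), with the replicate block (-0.38), in the fit of all 54 libraries (-0.38), without the 3 libraries that stood apart (-0.38) and with only the 2 groups compared (-0.38). By 48 h all 4 mixtures of batch 1 were lower: N_3 at 129, 123 and 146 CPM had the lowest STMN1 of the 18 groups, with a log2 fold change of -1.86 ± 0.07. N_2 followed at 165–179 CPM (-1.48 ± 0.07), then OO at 212–223 (-1.14 ± 0.07) and MOO at 249–272 (-0.89 ± 0.07). The 4 single removals of batch 2 lay close together between 178 and 244 CPM, with log2 fold changes from -1.39 under N_Omt to -1.09 under N_Nme. The summed proliferation markers moved in the same groups: they lay at 1034 to 1123 CPM under CKI at 24 h, 203 to 234 under N_3 at 48 h and 159 to 162 under N_Omt, and their part in the STMN1 result was not tested. Of all groups, N_Omt, in batch 2, had the lowest sum, and N_3 at 48 h, in batch 1, had the lowest STMN1.

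The α-tubulin genes were lower after CKI in both batches and at both times, TUBA1B and TUBA1C by more than TUBA1A. TUBA1B, the main α-tubulin gene of these cells, was at 1889.7, 1902 and 1753 CPM in untreated cells at 24 h and at 892, 1033 and 1154 after CKI. At 48 h it went from 1497–1573 to 845–933 CPM in batch 1 and from 1385–1551 to 792–809 in batch 2. On the log2 scale TUBA1B changed by -0.85 ± 0.20, -0.82 ± 0.07 and -0.87 ± 0.07 (edgeR adjusted p = 0.00381, 1.1e-09 and 3.38e-13), leaving 0.556, 0.567 and 0.546 of the untreated level. TUBA1C was at 768–822 CPM without and 405–465 with CKI at 48 h in batch 1, and its log2 fold changes were -0.93 ± 0.13, -0.89 ± 0.07 and -0.99 ± 0.07 in the same order. TUBA1A changed by -0.44 ± 0.14, -0.28 ± 0.09 and -0.29 ± 0.07. Its call at 24 h was lost without CKI replicate 1 (-0.30) or UT replicate 1 (-0.44) or 2 (-0.42), and the one at 48 h in batch 1 without UT replicate 3 (-0.23) or CKI replicate 3 (-0.24).

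At 48 h the α-tubulin genes were all called lower under N_2 and N_3 than under CKI. At 24 h under N_2 all 3 were already called lower than under CKI, though the call of TUBA1A was lost without any 1 of 4 libraries. At 24 h under N_3, TUBA1B alone of these genes was called lower than under CKI. Mean TUBA1A at 24 h was 169 CPM under N_3 and 172 under CKI. At 48 h the N_2 libraries held 176, 168 and 149.9 CPM of TUBA1B and the N_3 libraries 217, 215 and 229.5, against 1497, 1573 and 1573 in untreated cells. No library of either mixture came within reach of the untreated ones. Every library lay below every untreated one for 40.1% of all genes under N_2 and 33.7% under N_3. On the log2 scale N_2 and N_3 differed from them by -3.23 ± 0.07 (adjusted p = 7.43e-20) and -2.82 ± 0.07 (adjusted p = 3.41e-19), leaving 0.106 and 0.142 of the level. TUBA1C changed by -2.16 ± 0.08 under N_2 and -1.56 ± 0.08 under N_3, and TUBA1A by -1.52 ± 0.09 and -1.60 ± 0.09. At 24 h TUBA1B was at 643, 690.0 and 450.0 CPM under N_2 and at 482, 818 and 461 under N_3, where replicate 2, one of the 3 libraries that stood apart, was the highest. Its log2 fold changes at 24 h were -1.61 ± 0.20 and -1.65 ± 0.20, the latter -1.97 without that library. OO and MOO lowered TUBA1B to 726–748 and 869–900.4 CPM at 48 h (-1.08 ± 0.07 and -0.82 ± 0.07). At 24 h their values of -0.53 and -0.35 were not called by edgeR in the fit of 6 groups. Both were called in the fit of all 54 libraries (-0.53 and -0.35) and with only the 2 groups compared (-0.53 and -0.35), and OO also by DESeq2 (-0.54) and without the 3 libraries that stood apart (-0.54). In these pure mixtures at 48 h TUBA1A had the larger log2 fold changes, -1.29 ± 0.09 and -1.08 ± 0.09, the reverse of the order under CKI.

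In batch 2 each single removal lowered all 3 α-tubulin genes. TUBA1B was at 1478, 1551 and 1385 CPM in untreated cells, 481, 465 and 447 under N_Mac and 567, 471 and 445 under N_Nme. It was at 384, 382 and 362 CPM under N_Tri and 279, 272 and 257 under N_Omt. The N_Omt libraries lay below all others of the batch, at a log2 fold change of -2.45 ± 0.07 beside -2.00 ± 0.07 for N_Tri, -1.65 ± 0.07 for N_Mac and -1.59 ± 0.07 for N_Nme, and the difference between these mixtures was not tested. TUBA1C lay between -1.50 and -1.14 and TUBA1A between -1.44 and -1.03. The groups with the lowest TUBA1B, N_2, N_3 and N_Omt, had low proliferation markers, at 367 to 429, 203 to 234 and 159 to 162 CPM at 48 h. These markers were also low under N_Tri (354 to 405), N_Mac (387 to 410) and N_Nme (454 to 483), where TUBA1B was higher. As with STMN1, the part of these markers in the result was not tested.

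The β-tubulin genes did not move as a block. TUBB, the most abundant tubulin mRNA, fell moderately: it was at 3897, 3929 and 3850.1 CPM in untreated and 2455, 2536 and 2584 in CKI-treated cells at 24 h. The log2 fold change of TUBB under CKI was -0.62 ± 0.11 at 24 h (edgeR adjusted p = 0.000486), -0.45 ± 0.08 at 48 h in batch 1 (adjusted p = 3.43e-05) and -0.41 ± 0.06 in batch 2 (adjusted p = 6.12e-07). Over the mixtures at 48 h it ranged from -0.97 under N_Tri to -0.63 under N_Omt, all called. TUBB6 fell under CKI at 48 h, from 511–609.6 to 385–436 CPM in batch 1 (-0.45 ± 0.08) and from 324–359.8 to 220.4–235 in batch 2 (-0.58 ± 0.05). At 48 h TUBB6 fell most under N_2, N_3 and N_Omt, the groups with the lowest TUBA1B. It was at 136, 130.5 and 144 CPM under N_2 (-2.02 ± 0.08), 201, 219 and 192 under N_3 (-1.45 ± 0.08) and 131, 121 and 127 under N_Omt (-1.44 ± 0.05). Under N_Tri, the group with the next lowest TUBA1B, TUBB6 fell less (-0.65 to -0.59 with 1 library left out). At 24 h it was called lower under N_2 (-1.15 ± 0.19) and N_3 (-0.84 ± 0.18). Under OO at 48 h it was at 478–500.3 CPM, and its call at -0.20 was lost without UT replicate 2 (-0.21) or 3 (-0.13), OO replicate 1 (-0.20) or 3 (-0.19). Under MOO TUBB6 was not called (-0.08, interval -0.24 to 0.08).

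At 48 h TUBB4B and TUBB3 were not called lower under CKI by edgeR in the fits of 6 groups, and they fell under 8 and 7 of the 8 mixtures. TUBB4B, a broadly expressed isotype, was at 757, 824 and 852 CPM in untreated and 854, 805 and 807 in CKI-treated cells of batch 1 at 48 h, and the groups overlapped. In batch 2 it went from 564, 604 and 522 to 671, 645 and 648 CPM, a rise of 0.22 ± 0.06 (adjusted p = 0.000873) that was no longer called when all 54 libraries were fitted together. Under the single removals of batch 2 the same gene was at 204–239 CPM (N_Mac), 221–245 (N_Nme), 206–218 (N_Omt) and 215–218 (N_Tri), with log2 fold changes from -1.43 to -1.30 against untreated cells. All 12 of these libraries lay below the lowest untreated one. By mixture, 34.0% (N_Nme) to 40.2% (N_Omt) of all genes also had every library below every untreated one. In batch 1 at 48 h TUBB4B was lower under N_3 (-1.06 ± 0.08), N_2 (-0.72 ± 0.08), OO (-0.59 ± 0.08) and MOO (-0.38 ± 0.07), and at 24 h it was called under N_3 (-0.98 ± 0.17). In batch 2 TUBB3 was at 81.8, 85.9 and 70.7 CPM in untreated and 83.2, 82.1 and 85.9 in CKI-treated cells, which overlapped. It was at 21.4, 22.8 and 19.7 under N_Mac, 24.5, 22.3 and 27.6 under N_Nme, 30.0, 28.0 and 32.3 under N_Omt and 25.3, 27.4 and 25.4 under N_Tri. The log2 fold changes of TUBB3 against untreated cells ran from -1.89 ± 0.07 (N_Mac, adjusted p = 1.72e-20) to -1.41 ± 0.07 (N_Omt, adjusted p = 7.89e-18). In batch 1 at 48 h TUBB3 went from 119, 138 and 145 to 117, 121 and 112 CPM under CKI, where the groups overlapped (-0.20 ± 0.09, adjusted p = 0.0595). It was called lower there by DESeq2 (-0.21), with another size factor (-0.21), with no filter (-0.20), with only the 2 groups compared (-0.19) and without UT replicate 1 (-0.29). In the same batch at 48 h TUBB3 was lower under N_3 (-0.94 ± 0.09), OO (-1.16 ± 0.09) and MOO (-0.93 ± 0.09), but under N_2 it stayed at 127, 109 and 129 CPM (-0.14, interval -0.32 to 0.04). At 24 h TUBB3 was called lower under CKI (-0.70, adjusted p = 0.0210), a call lost without UT replicate 1 (-0.69) or 2 (-0.69) or CKI replicate 1 (-0.56).

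TUBB2A and TUBB2B moved together and little. Under CKI neither was called by edgeR in the fits of 6 groups, and at 48 h their 95% intervals against untreated cells were -0.36 to -0.02 and -0.37 to 0.01 in batch 1 and -0.08 to 0.13 and -0.01 to 0.24 in batch 2. In batch 1 at 48 h TUBB2A was called lower by DESeq2 (-0.20), with another size factor (-0.20), with only the 2 groups compared (-0.18) and without UT replicate 1 (-0.26) or CKI replicate 1 (-0.23), and TUBB2B without UT replicate 1 (-0.28). In batch 2 the calls went the other way: both were higher with scaling by library size alone, at 0.11 and 0.21, as was TUBB3 at 0.17, and TUBB2B with only the 2 groups compared (0.13). N_2 lowered neither, with TUBB2A at 236, 189.7 and 212 CPM at 48 h against 174, 190.4 and 204 in untreated cells. N_3, OO, MOO and the 4 single removals lowered both at 48 h, with log2 fold changes from -0.67 to -0.39 for TUBB2A and from -0.71 to -0.53 for TUBB2B. Across the 54 libraries, after the mean of each time and batch was taken off, log2 levels of this pair had a Pearson correlation of 0.963, and that of TUBB2A with TUBA1C was 0.041 (a description, since the points share libraries and controls). The first may hold shared reads, since the coding sequences are nearly identical.

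Setting each mixture beside whole CKI asked which removals changed the response of these genes. In batch 2 most tubulin genes were lower than under CKI, while STMN1 was called under 1 of 4 removals. STMN1 differed from CKI by 0.03 under N_Mac (95% interval -0.09 to 0.16), 0.00 under N_Tri (-0.12 to 0.13) and -0.11 under N_Omt (-0.23 to 0.02), none of them called. Under N_Nme it was higher by 0.19 ± 0.06 (adjusted p = 0.00665). Under N_Mac, N_Nme and N_Tri the log2 differences of TUBB3 and TUBB4B from CKI were the lowest of the 10 genes. Over the 4 removals TUBB3 ran from -1.97 ± 0.07 under N_Mac to -1.49 ± 0.07 under N_Omt and TUBB4B from -1.65 ± 0.06 under N_Omt to -1.52 ± 0.06 under N_Nme. The log2 difference of TUBA1B from CKI was -0.72 (N_Nme), -0.78 (N_Mac), -1.13 (N_Tri) and -1.58 (N_Omt). TUBB6 parted the removals: under N_Omt it was -0.86 ± 0.05 against CKI, under N_Mac -0.26 ± 0.05, and under N_Nme and N_Tri its intervals of -0.13 to 0.08 and -0.14 to 0.06 held 0. In all, 9 of 10 genes were called under N_Mac, 9 under N_Nme, 9 under N_Omt and 8 under N_Tri, where 69.4%, 71.5%, 76.3% and 71.4% of all genes were called. The call of TUBA1C under N_Nme (-0.16) was lost without any 1 of 5 libraries, CKI replicate 1, 2 or 3 (-0.15, -0.15 and -0.17) or N_Nme replicate 2 or 3 (-0.10 and -0.05).

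**Figure D3:**
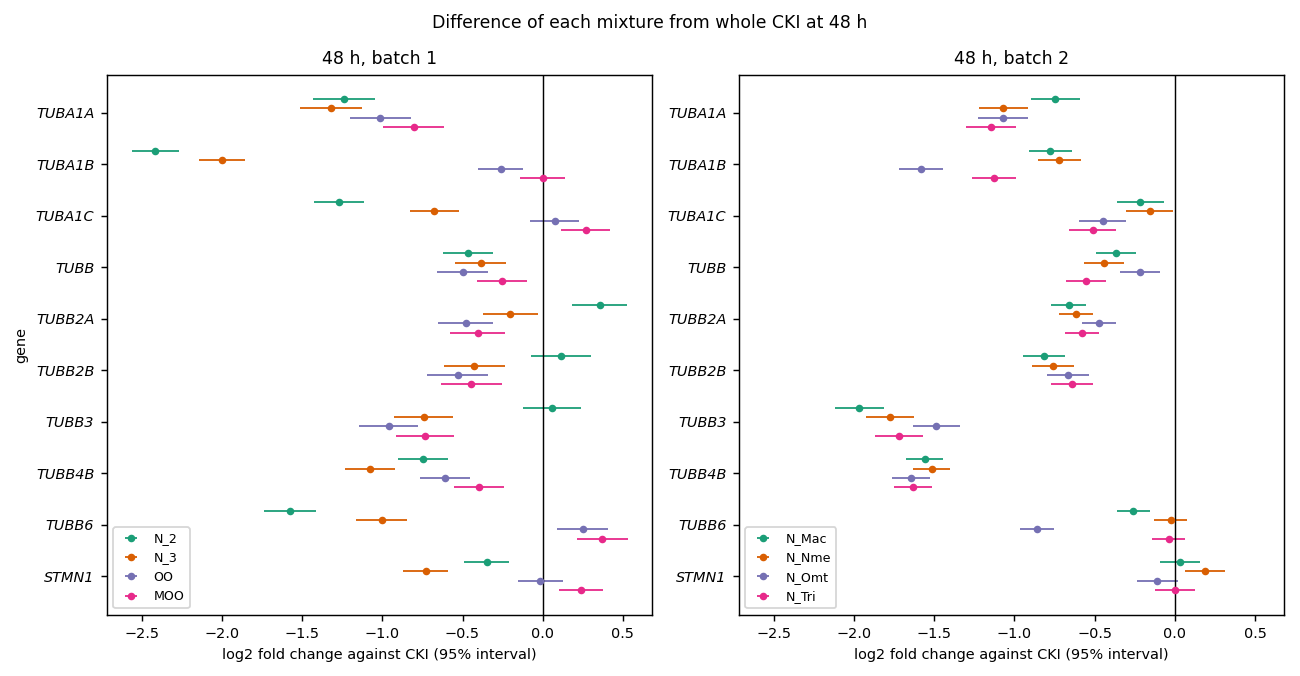
Log2 fold change of each gene (y axis) in each mixture against whole CKI at 48 h (x axis), with 95% intervals from the edgeR fit, batch 1 on the left and batch 2 on the right. In batch 2 the STMN1 values lie between -0.11 and 0.19, while those of TUBB3 lie between -1.97 and -1.49 and those of TUBB4B between -1.65 and -1.52.

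In batch 1 at 48 h the mixtures differed from CKI in opposite directions for some genes. With Omt and Ospc removed (N_2) TUBA1B (-2.42 ± 0.07) and TUBB6 (-1.57 ± 0.08) were lower than under CKI, yet TUBB2A was higher by 0.36 ± 0.08 (adjusted p = 0.000538). N_3 was lower than CKI for all 10 genes, from -2.00 for TUBA1B to -0.20 for TUBB2A, whose call was lost without CKI replicate 1 (-0.15) or 3 (-0.19) or N_3 replicate 1 or 3 (both -0.19). With OO, the compounds that N_2 lacks, STMN1 was at -0.02 against CKI (interval -0.16 to 0.12) and TUBA1C at 0.07 (-0.08 to 0.23), neither called, and TUBA1B was lower (-0.26 ± 0.07). With MOO, TUBA1B was not called against CKI (interval -0.14 to 0.14), and values were higher for STMN1 (0.24 ± 0.07), TUBA1C (0.27 ± 0.07) and TUBB6 (0.37 ± 0.08). For TUBA1A (-1.01 and -0.80) and TUBB3 (-0.96 and -0.73), OO and MOO were both lower than CKI. The counts were 8 of 10 called under N_2 (1 higher), 10 under N_3, 8 under OO (1 higher) and 9 under MOO (3 higher), beside 73.1%, 67.2%, 51.8% and 47.6% of all genes.

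At 24 h MOO, OO and N_2 had more STMN1 than CKI. STMN1 was higher by 0.83 ± 0.13 under MOO (adjusted p = 0.000695), 0.78 ± 0.13 under OO (adjusted p = 0.00118) and 0.72 ± 0.13 under N_2 (adjusted p = 0.000149), and under N_3 the interval of -0.21 to 0.33 held 0. TUBA1C was lower than in CKI under N_2 (-1.13 ± 0.13) and higher under MOO (0.60 ± 0.13, lost without MOO replicate 1, at 0.55). In all, 6 of 10 genes were called under N_2 (2 higher), 3 under N_3, 1 under OO and 3 under MOO, beside 58.7%, 35.7%, 8.49% and 11.6% of all genes. DESeq2 called 3 under OO, and the fit of all 54 libraries 4. Without the 3 libraries that stood apart the counts were 6, 4, 1 and 3. The shares of all genes are those of the fit of 6 groups, and none is set beside the counts of the other fits. Of the smaller differences, TUBA1A under N_2 (-0.38) was not called without CKI replicate 2 (-0.32) or 3 (-0.30) or N_2 replicate 1 (-0.35) or 2 (-0.30). TUBB6 under N_3 (-0.53) was not called without CKI replicate 2 (-0.43) or 3 (-0.44) or N_3 replicate 1 (-0.58), 2 (-0.53) or 3 (-0.51), nor was TUBB under MOO (0.38) without any 1 of its 6 libraries (0.36 to 0.40). TUBB was also higher under N_2 (0.37), but with scaling by library size alone its value was 0.0088.

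Treatment effects on these genes were next compared between 24 h and 48 h, and they were larger at 48 h for several genes under the mixtures. For CKI, the difference between the times was called for no gene by edgeR (1 had an unadjusted p under 0.05) or by DESeq2, beside 0.391% of 15858 genes, and for STMN1 its interval was -0.19 to 0.39. For N_2, 6 of 10 genes were lower still at 48 h (18.7% of all genes), namely TUBA1B (-1.59 ± 0.21), STMN1 (-0.95 ± 0.14) and TUBB6 (-0.84 ± 0.21), with TUBA1A, TUBB and TUBB4B between -0.67 and -0.64. The calls of the last 3 were lost with scaling by library size alone (-0.32, -0.28 and -0.29). TUBA1C under N_2 was low at 24 h already (213–259 CPM, and 165–187 at 48 h), with a difference of -0.06 (interval -0.38 to 0.25). For N_3, TUBA1B (-1.15 ± 0.21), TUBA1A (-1.12 ± 0.18) and STMN1 (-0.68 ± 0.14) were lower at 48 h (5.00% of all genes), and for OO it was TUBA1A (-0.92 ± 0.18), STMN1 (-0.69 ± 0.14) and TUBB (-0.63 ± 0.13; 4.83% of all genes). For MOO edgeR called TUBA1A (-0.83 ± 0.18, adjusted p = 0.00795; 1.57% of all genes), and DESeq2, another size factor, the filter at 1 CPM and the fit of all 54 libraries each called 3 genes, with 5 called without the 3 libraries that stood apart. Each time difference rests on a 24 h effect with wide intervals, the common coefficient of variation being 0.175 at 24 h and 0.0763 at 48 h in batch 1.

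**Figure D4:**
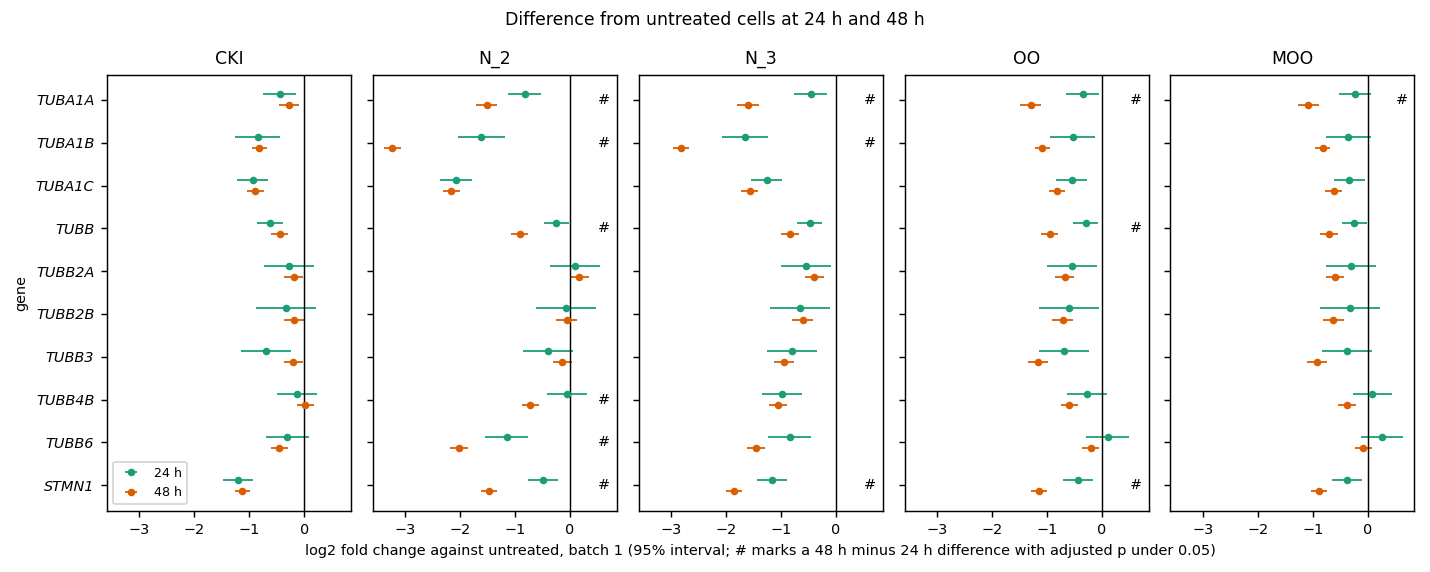
Log2 fold change against untreated cells in batch 1 at 24 h and 48 h (x axis, with 95% intervals) for each gene (y axis), 1 panel per treatment; a hash marks genes whose 48 h minus 24 h difference had an adjusted p under 0.05. No gene is marked under CKI, 6 are under N_2, 3 under N_3, 3 under OO and 1 under MOO.

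CKI was the one treatment measured in both batches at 48 h. No gene of the 10 was called for a difference in its effect between batches by edgeR (4 had an unadjusted p under 0.05) or by DESeq2, beside 8.90% of 15872 genes. The 95% interval of that difference was -0.31 to 0.13 for TUBA1C and -0.33 to 0.05 for STMN1. The 4 genes with an unadjusted p under 0.05 were TUBB2A (0.22), TUBB2B (0.30), TUBB3 (0.29) and TUBB4B (0.21), which are 4 of the 6 genes that were lower in untreated cells of batch 2. The difference in effect holds the same untreated libraries with the opposite sign, so this overlap is not independent of it.

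The α-tubulin sum fell further than the β-tubulin sum under CKI. The sums are of CPM not scaled to length, so their ratio is read only for its change between groups. The summed α-tubulin level was 2509, 2636 and 2677 CPM in untreated and 1633, 1478 and 1458 in CKI-treated cells at 48 h in batch 1, and the summed β-tubulin level 4979, 5179 and 5466 and 4183, 4061 and 4039. The α sum was thus 0.504, 0.509 and 0.490 of the β sum without and 0.390, 0.364 and 0.361 with CKI. In batch 2 the ratio was 0.531, 0.528 and 0.538 without and 0.367, 0.367 and 0.366 with CKI. Over both batches the mean log2 difference between CKI and untreated cells was -0.81 for the α sum, -0.33 for the β sum and -0.48 for their ratio, each with p = 0.005 in a two-sided exact permutation test within batches (400 arrangements, 0.005 being the smallest p possible, and 0.005 after adjustment over the 4 measures, the total included). All 4 measures gave this smallest p, so the test cannot rank them. The genes were chosen with earlier results of these data known, so these p-values give no independent support. Among the groups at 48 h the ratio was lowest under N_2, at 0.155, 0.160 and 0.142, followed by N_3 at 0.179 to 0.225 and N_Omt at 0.228 to 0.238. At 24 h N_2 had a ratio of 0.168 to 0.224. Under OO and MOO at 48 h it was 0.417 to 0.434 and 0.416 to 0.455. Of the α-tubulin counts, again not scaled to length, TUBA1B made up 59.4% in untreated cells of batch 1 at 48 h, 57.6% under CKI and 37.8% under N_2, where TUBA1C took 41.0% (means of 3 libraries).

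**Figure D5:**
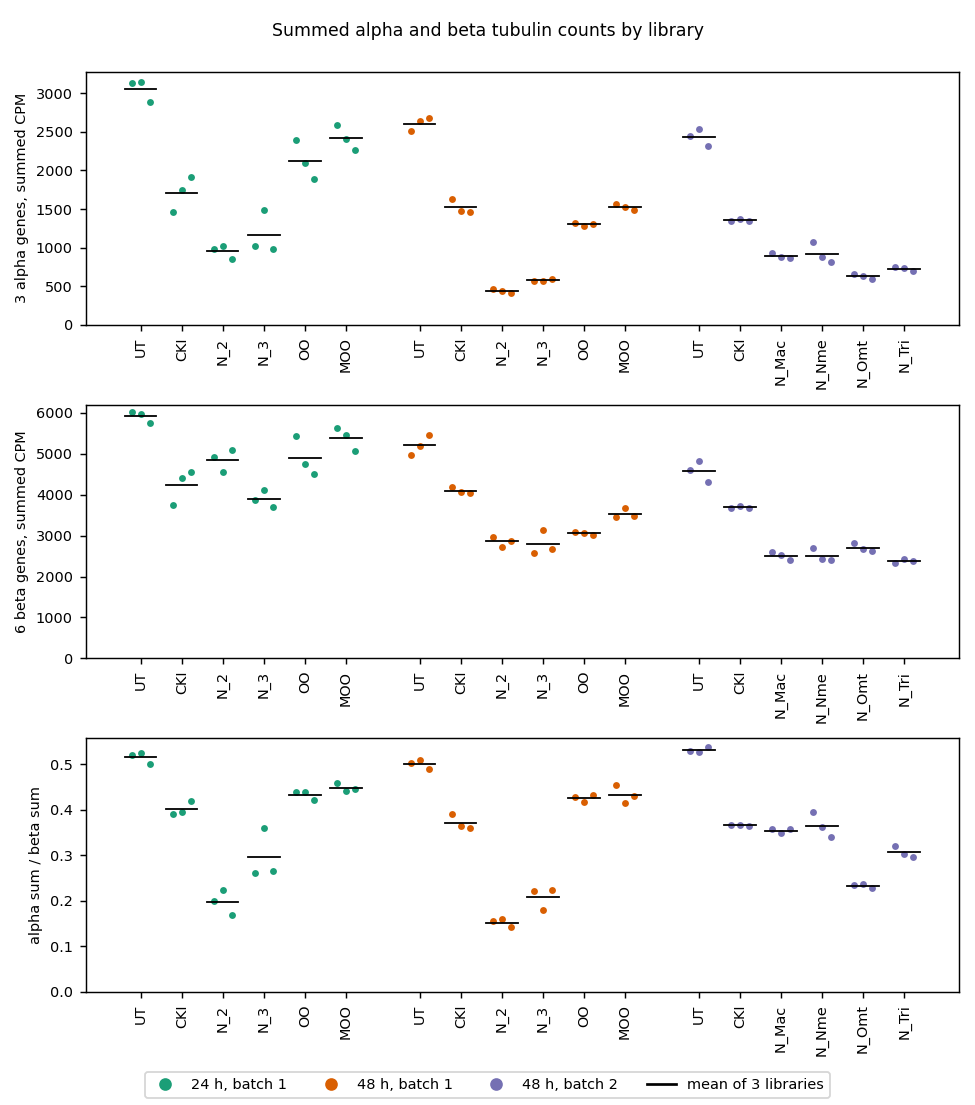
Summed CPM of the 3 α-tubulin and 6 β-tubulin genes and the ratio of the sums (y axes) in each library, by treatment (x axis) and by time and batch (colour); bars are means of 3. The ratio lies between 0.490 and 0.538 in all untreated libraries and between 0.142 and 0.160 under N_2 at 48 h.

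Other genes of the pathway are given from lists of its parts, chosen with earlier results of these data known. Of the 3 further stathmin genes, STMN2 had no count in any library and STMN4 no more than 5, and STMN3 was lower in every comparison with untreated cells. STMN3 went from 116–139 to 37.3–47.5 CPM under CKI at 48 h in batch 1 (-1.65 ± 0.11) and from 47.4–65.0 to 23.4–27.8 in batch 2 (-1.10 ± 0.09). Under N_3 at 48 h it was down to 4.77–7.60 CPM (-4.40 ± 0.13) and under N_Omt to 2.88–3.49 (-4.11 ± 0.12), larger log2 fold changes than those of STMN1. Of 4 kinases that phosphorylate stathmin, AURKB and CDK1, which act in mitosis, were lower under CKI at 48 h (-0.84 ± 0.12 and -0.67 ± 0.08 in batch 1, -1.50 ± 0.09 and -0.88 ± 0.07 in batch 2). PAK1 was lower too (-0.44 ± 0.08 and -0.44 ± 0.06), and PRKACA, the catalytic subunit of protein kinase A, was higher (0.43 ± 0.10 and 0.40 ± 0.06).

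Genes of the tubulin mRNA control described above were mostly not called under CKI. TTC5 was at 0.01 ± 0.11 and 0.06 ± 0.10 under CKI at 48 h in batches 1 and 2 and SCAPER, its partner, at 0.20 ± 0.11 and 0.04 ± 0.10, none of them called. CNOT11, a subunit of the deadenylase complex, was at 0.09 ± 0.06 in batch 1, not called, and higher in batch 2 (0.22 ± 0.05). Under N_2 SCAPER was lower at 24 h (-1.85 ± 0.21) and at 48 h (-0.78 ± 0.12). Among 21 genes for the folding of tubulin, 14 were lower and none higher under CKI at 48 h in batch 1, with 15 lower and 1 higher in batch 2. Of all genes, 27.0% and 34.2% were lower in these comparisons. CCT4, a subunit of the chaperonin that folds tubulin, fell in both (-0.47 ± 0.06 and -0.47 ± 0.05). Under N_Omt 8 of the 21 were lower and 6 higher (39.9% of all genes lower). Under N_3 at 48 h 6 were lower and 2 higher (35.3% of all genes lower). The medians of this list were -0.25 and -0.23 under CKI in batches 1 and 2, 0.04 under N_Omt and -0.08 under N_3. The medians of all genes in these 4 comparisons lay between -0.01 and 0.02.

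Genes for proteins that act on the polymer were called in both directions, as were all genes. Under CKI at 48 h in batch 1, 54.0% of all genes were called and 27.0% were lower. In batch 2, 34.2% were lower and 32.3% higher. Many of the counts below lie near these shares, and no list was tested. Of 10 depolymerases and severing enzymes, 3 were lower and none higher under CKI at 48 h in batch 1, 5 lower and 1 higher in batch 2. KIF2C, a mitotic depolymerase, was lower at -1.27 ± 0.08 and -1.51 ± 0.08 under CKI and at -5.69 ± 0.11 under N_Omt. Of 15 microtubule binding and stabilising proteins, 6 were higher and 3 lower in batch 1 and 7 higher and 5 lower in batch 2. MAP1A rose from 0.862–1.33 to 5.18–5.55 CPM in batch 2 (2.33 ± 0.18; 2.16 ± 0.28 in batch 1), and DCLK1, from 1.45–3.03 to 0.587–0.757 CPM, fell (-1.85 ± 0.28; -1.43 ± 0.31). Of 11 plus end proteins, 3 were higher in each batch, and 4 and 6 were lower. MAPRE3, an end-binding protein, rose (0.87 ± 0.08 and 1.33 ± 0.07) and TACC3, a spindle protein, fell (-0.68 ± 0.06 and -0.87 ± 0.06). Of 16 genes for tubulin modification, 4 were higher in each batch and 2 and 1 lower. VASH1, which removes the terminal tyrosine of α-tubulin, was higher (0.90 ± 0.14 and 1.14 ± 0.13) and TTLL11, a polyglutamylase, lower (-0.37 ± 0.12 and -0.46 ± 0.11). Among 13 further tubulin genes, 4 were higher and 1 lower in batch 1 and 5 higher and 1 lower in batch 2, and TUBAL3 rose, though only from 0.274–0.540 to 2.40–2.93 CPM in batch 2 (2.56 ± 0.23; 2.47 ± 0.32 in batch 1). Of the 11 proliferation markers, 10 were lower in each batch, with PLK1 at -1.86 ± 0.06 and -2.22 ± 0.06.

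The genes whose pattern was most like that of 3 members were found by the Pearson correlation of log2 CPM over the 54 libraries, after the mean of each time and batch was taken off, among 9773 genes of at least 10 CPM on average. For STMN1 these were HMGB1 (0.964), PEBP1 (0.946) and MARVELD1 (0.946). For TUBA1B they were TFDP1 (0.974), CALM3 (0.972) and KDELC2 (0.972), and for TUBB they were L1CAM (0.907), SERTAD4 (0.906) and KRT18 (0.905). Among the 10 genes, TUBA1B was closest to TUBA1C (0.915) and TUBB6 (0.896), and TUBB3 to TUBB2B (0.872), TUBB2A (0.839) and TUBB4B (0.839). STMN1 was closest to TUBB (0.813) and TUBA1B (0.797), and the least alike pair was TUBB2A with TUBB6 (-0.060). These values describe points that share libraries, depth and untreated controls, and they carry no test.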

How the data were processed

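The authors sequenced oligo(dT)-selected RNA as paired ends from 54 libraries and deposited 1 table of raw read counts per gene. Per the labels, the submitters' processing notes name FastQC 0.11.4, Trim Galore 0.3.7, STAR 2.5.3a, Subread 1.5.2 (featureCounts), edgeR 3.22.3 and the hg19 build; how reads matching several genes or either strand were counted is not given in the sources used here. Groups were taken from the sample labels. The members and gene lists were chosen with earlier results of these data known.

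Counts were analysed in R 4.3.3 with edgeR 4.0.16 (filterByExpr, TMM scaling, quasi-likelihood test), separately for 24 h batch 1, 48 h batch 1 and 48 h batch 2, with 18 libraries each. Differences between times or batches were tested over 36 libraries. Benjamini-Hochberg adjustment covered all genes tested, and a gene was called at an adjusted p under 0.05. Levels are CPM, counts scaled to the depth of each library by TMM over all 54 libraries. Levels per kilobase use the length of the principal GENCODE v29 transcript, which approximates the model the authors counted on. Standard errors were taken from the fitted change and its F statistic. Named genes were all 10 members and, from each list, the strongest rise and fall called under CKI at 48 h in both batches, by the mean of both, with lists of up to 4 genes whole. Alternatives were DESeq2 1.42.0, other scalings and filters, 1 fit of all libraries, only the groups compared, a replicate block, a fold threshold and leaving out each library and leaving out the 3 libraries that stood apart, which earlier results had shown. The fits were tested on simulated data. Same-numbered replicates did not deviate together (correlations of -0.789 to 0.802 at 24 h), so no pairing was used. No libraries were duplicates. P-values set a difference between groups against a spread between libraries that was estimated over all groups of a fit, with 3 libraries per group. The depth of 17673537 to 26138924 counts put every member at 464 counts or more.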

Additional observations from a re-analysis of the deposited data

Results flagged for a closer look

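In batch 1 the effect of a treatment against untreated cells differed between 24 h and 48 h by the edgeR test of the difference itself for 13 pairs of gene and treatment, each lower at 48 h (log2 difference of the effects, 48 h minus 24 h). Under N_2 these were TUBA1B (-1.59), STMN1 (-0.95), TUBB6 (-0.84), TUBA1A (-0.67), TUBB (-0.64) and TUBB4B (-0.64). Under N_3 they were TUBA1B (-1.15), TUBA1A (-1.12) and STMN1 (-0.68). Under OO they were TUBA1A (-0.92), STMN1 (-0.69) and TUBB (-0.63), and under MOO TUBA1A (-0.83). TUBA1A is the 1 gene on this list for all 4 mixtures, and no gene is on it for CKI. Without CKI replicate 1, N_3 replicate 2 and OO replicate 2 at 24 h the number of such pairs was 21.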

How the results depend on the processing

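Of 350 tests of a member, DESeq2 gained 14 calls and lost 1, another size factor changed 5, scaling by library size alone 19 and the replicate block 4. With only the 2 groups compared, 21 of 270 changed, among them 9 calls under MOO at 24 h where the fit of 6 groups made 0. Replicate numbers did not pair the libraries. With the replicate block TUBB2A under N_3 (-0.56) and STMN1 under MOO (-0.38) at 24 h and the time difference of STMN1 under MOO (-0.49) were gained, and TUBA1A between untreated batches (-0.16) was lost. A single fit of all 54 libraries called 36 of 50 tests against untreated cells at 24 h (23 in the separate fit), 20 of 40 against CKI at 24 h (13) and 1 for untreated cells between the times (0). With a minimum log2 fold change of 1 the counts fell to 7 of 23 and 17 of 42 against untreated cells at 24 h and 48 h in batch 1, 26 of 47 in batch 2, 1 of 13, 9 of 35 and 13 of 35 against CKI, 3 of 13 time differences and 1 of 6 differences between untreated batches. Without the 3 libraries that stood apart, which were chosen with earlier results of these data known, there were 21 time differences (13) and 2 for untreated cells (0). Leaving out 1 library gave 18 to 29, 41 to 46 and 47 to 47 calls against untreated cells, 10 to 17, 34 to 35 and 34 to 35 against CKI, 13 to 16 time differences, 0 to 0 for untreated cells between times, 5 to 6 between batches and 0 to 2 for CKI between batches, the 2 without UT replicate 1 of batch 1. Against untreated cells, signs turned in uncalled values only. With 1 library left out TUBB4B under CKI ran from -0.26 to 0.016 at 24 h (highest without CKI replicate 1, and 0.016 without the 3 libraries) and from -0.037 to 0.059 at 48 h in batch 1 (below 0 without UT or CKI replicate 1). TUBB2A and TUBB2B under N_2 at 24 h ran from -0.047 (without N_2 replicate 3) to 0.19 and from -0.24 to 0.058 (without N_2 replicate 2). TUBB6 under OO at 24 h ran from -0.078 (without OO replicate 1) to 0.28, and TUBB3 under CKI in batch 2 from -0.0048 (without UT replicate 3) to 0.14. By library size alone TUBB2A under N_2 at 24 h was -0.21, TUBB2B under N_2 at 48 h 0.0093 and TUBB6 under MOO at 48 h 0.0064. Causes of these changes were not tested, and no share of all genes is set beside the counts of these other settings. In every group the spread between libraries was larger than counting error. Averaged over genes, the squared difference between 2 libraries of a group was 1.97 to 131 times that of counting error alone.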
